A study of Mus musculus with 6 samples.

Results

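A set of 77 genes was examined whose transcripts were low both in knockout and in heterozygous Chsy3 cultures of mouse nucleus pulposus cells, relative to wild-type cultures. The set was chosen from the measured levels, in CPM, which is a gene's read count scaled to a library total of 1000000 reads. A gene was taken when its wild-type mean was at least 8 CPM and its highest value in the knockout and heterozygous libraries was at most 50% of its lowest wild-type value. Of the 46095 genes of the table, 10055 reached that level and 92 of them (0.915%) met both conditions. Of these, 15 were left out by name, as predicted genes or as members of several gene families (among them Foxc2, Gjb2, Hoxc5, Krt19, Piezo2, Sema3d, Slc4a4, Slc4a10, Zic1, Zic2 and Zic4). All values against wild type were thus used in the choice, are given as a description, and support nothing further. The order of knockout and heterozygous cultures was not set by the choice and was tested, although the ceiling of the rule applied to both.

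RNA was sequenced from primary cultures of the nucleus pulposus, the soft core of the intervertebral disc, with 2 libraries for each of 3 genotypes. The groups were knockout of Chsy3, heterozygous for the Chsy3 allele, and wild type. All were labelled as cells of male mice 8 weeks of age, freed with collagenase and grown in serum medium to passage 2. The altered part of Chsy3 is not named in the labels. Nor do they state whether libraries with the same genotype stem from different animals or dishes; each p-value therefore measures variation among these 6 libraries alone, which may be technical.

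Chsy3 encodes a chondroitin sulfate synthase, a Golgi enzyme that extends the sugar chains carried by proteoglycans. These chains hold water in the disc core and bind growth factors and guidance cues. The genes of the set have textbook roles in several such systems, among them matrix assembly, Slit, netrin and ephrin guidance, forkhead transcription factors and ion transport.

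Total counts ranged from 29622117 to 33899611 per library. Chsy3 itself had 118 and 76 counts in knockout libraries, 167 and 197 in heterozygous libraries and 284 and 284 in wild-type libraries. Its mean CPM was thus 35.3% of wild type in knockout and 69.7% in heterozygous cultures, and reads of the gene remained in every library. Reads of sex-linked genes departed from the male label in every genotype, most plainly in the heterozygous libraries. The Y-linked genes Ddx3y, Uty, Kdm5d and Eif2s3y had 0 counts in both of them but were present in all knockout and wild-type libraries (Ddx3y at 30.8 and 32.4 CPM in knockout and 27.4 and 21.6 CPM in wild type). Xist, the RNA that coats the inactive X chromosome in females, was read in all 6 libraries, at 662 and 668 CPM in knockout, 1052 and 1048 CPM in heterozygous and 666 and 656 CPM in wild-type libraries. The knockout and wild-type libraries thus held Xist beside Y-linked reads, which the male label does not account for either. In every value that rests on the heterozygous libraries, genotype and their difference in Y-linked and Xist reads cannot be told apart. Applied to the knockout libraries without both heterozygous libraries, the same rule and name filters gave 157 genes, which hold all 77 by construction, since a condition was only removed. Of 20 nucleus pulposus and notochord markers 13 passed the low-count filter. The notochord factors T, Shh, Noto and Foxa2 had 0 counts in all 6 libraries, and the aggrecan gene Acan had 8 counts in a single wild-type library and 0 elsewhere. Other markers were read, among them the cartilage collagen Col2a1 at 22.1 and 21.4 CPM in knockout, 6.01 and 5.01 CPM in heterozygous and 23.04 and 22.7 CPM in wild-type libraries, and the factor Sox9 at 21.9 and 24.5 CPM in knockout, 55.3 and 56.9 CPM in heterozygous and 15.3 and 16.8 CPM in wild-type libraries.

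Summed over the 77 genes, levels were 1551 and 1580 CPM in knockout libraries and 1378 and 1361 CPM in heterozygous libraries. Both wild-type libraries, with 5581 and 5601 CPM, were far above all 4 others. Per gene, the knockout mean was 0.436% to 47.9% of the wild-type mean with a median of 26.9%, and the heterozygous mean was 0.203% to 48.8% with a median of 25.7%. The mean was under 10% of wild type in both genotypes for 10 genes, under 20% in both for 20, and at 40% or more in both for 5. Wild-type means ran over a wide range, 8.001 to 1032 CPM with a median of 28.8, and 16 genes reached 100 CPM. In the fit of all 16061 tested genes with edgeR's quasi-likelihood test at an adjusted p under 0.05, all 77 were on the lower side in knockout and in heterozygous cultures against wild type, an outcome that follows from the choice. Among all tested genes 18.9% were called lower in knockout and 19.7% in heterozygous cultures (24.9% and 27.1% of genes of at least 8 CPM), with 19.2% called higher in either; because the rule used these contrasts, nothing is read from the members' counts. In bulk RNA, fewer cells of a type and less RNA per cell cannot be told apart. The members passed the low-count filter of the fit in all 77 cases, and 72 had at least 10 counts in every library.

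The rule left a narrow margin at both limits. Epha3, Pear1 and Inhba were the last genes inside the ceiling, with a highest knockout or heterozygous value at 48.5%, 49.1% and 49.5% of the lowest wild-type value. Fbn2 and Plac8 lay just outside at 50.7% and 50.9%. On the level limit, Efna3, Klf12 and Foxd2 were just inside at 8.0, 8.04 and 8.16 CPM in wild type, and Ang2, Pgr and Eva1c just outside at 7.96, 7.96 and 7.68 CPM.

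**Figure D1:**
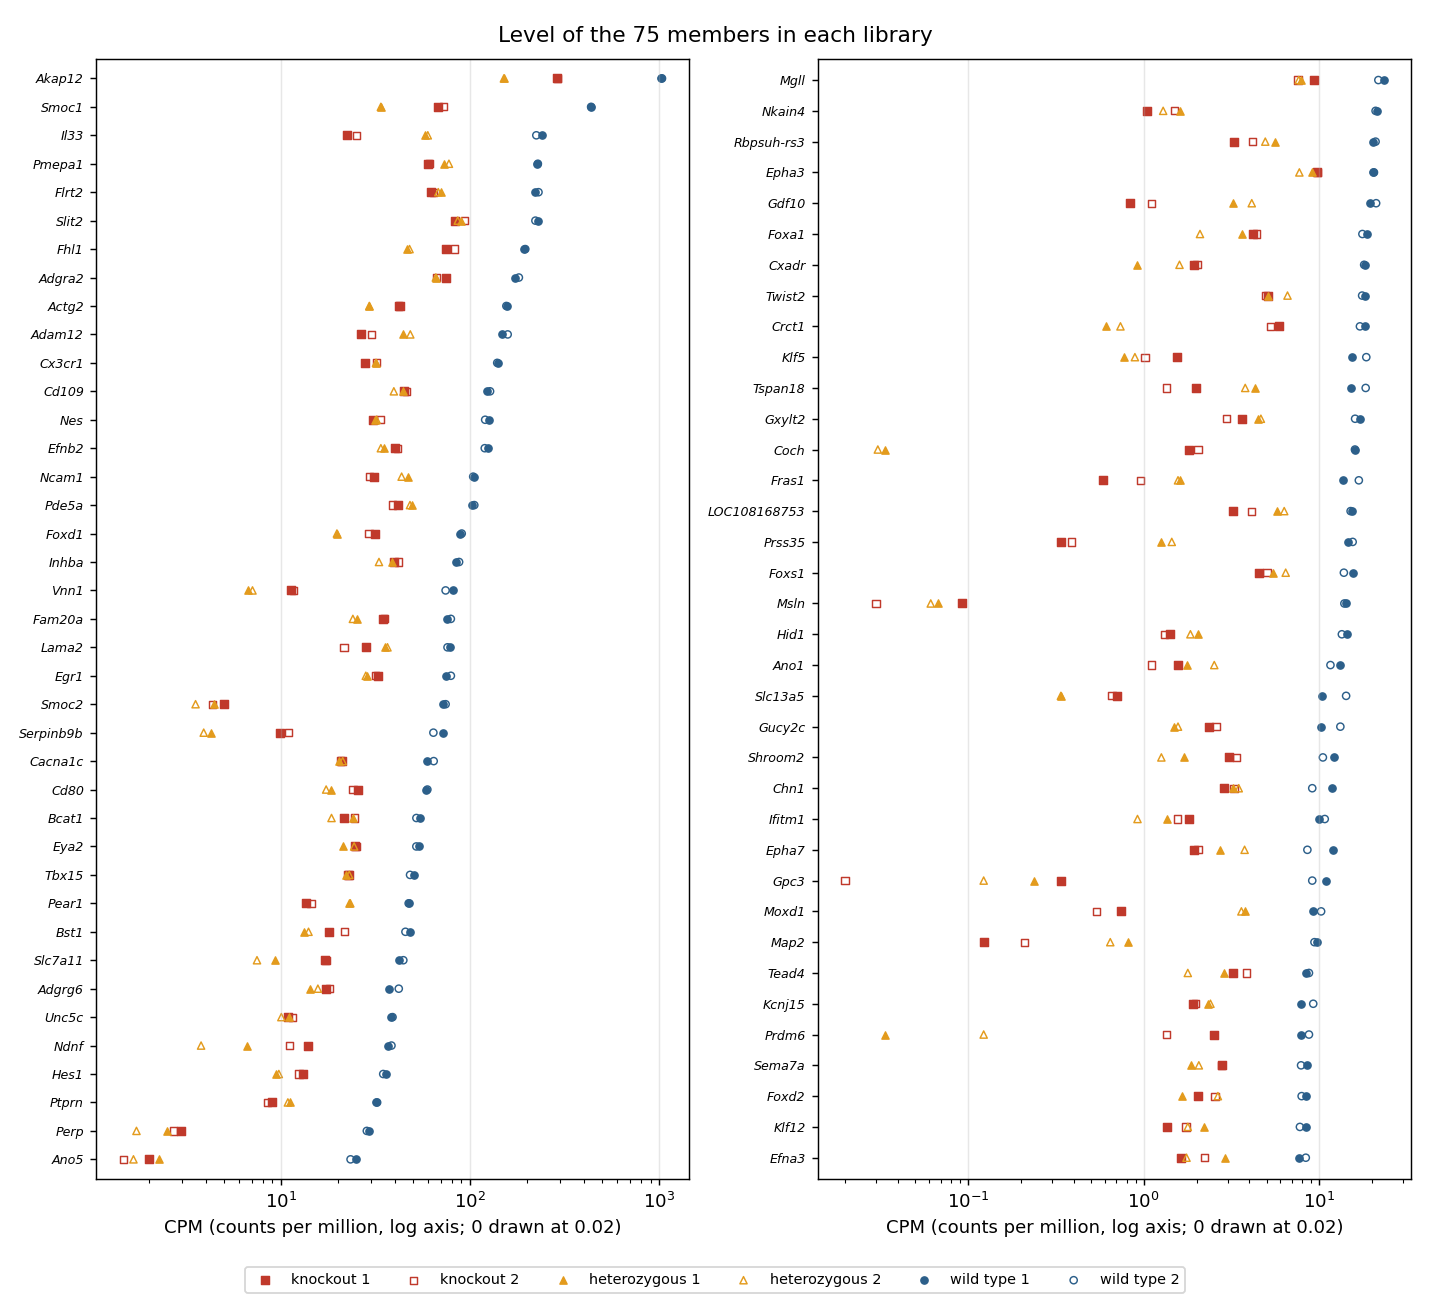
Level of 75 of the 77 genes in each of the 6 libraries, in CPM on a log axis, ordered by wild-type mean; colours mark knockout, heterozygous and wild-type libraries, and the 1 count of 0, Gpc3 in the second knockout library, is drawn left of all others. Wild-type points lie right of all others because the rule required it, and the libraries of a genotype lie close together, within 1.2-fold for 53 of the genes drawn in knockout, 52 in heterozygous and 67 in wild-type cultures.

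Among the proteins of the extracellular matrix, 9 genes belonged to the set, with median remaining levels of 12.1% in knockout and 9.0% in heterozygous cultures. Both Smoc genes, which encode calcium-binding proteins of the SPARC family, were members. Smoc1 had 67.3 and 72.6 CPM in knockout, 33.6 and 33.8 CPM in heterozygous and 434 and 437 CPM in wild-type libraries. Smoc2 had 4.97 and 4.35 CPM in knockout, 4.42 and 3.54 CPM in heterozygous and 71.5 and 74.3 CPM in wild-type libraries. The knockout libraries lay above the heterozygous ones for Smoc1, whereas they overlapped for Smoc2. In knockout against heterozygous cultures Smoc1 was 0.99 ± 0.046 on the log2 scale (SE, adjusted p = 1.21e-21), and Smoc2 was not past the threshold at 0.17 ± 0.14 (adjusted p = 0.387).

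Gpc3 encodes glypican-3, a cell-surface carrier of heparan sulfate chains, and was among the most depleted genes. It had 11 and 0 counts in knockout, 7 and 4 counts in heterozygous and 371 and 308 counts in wild-type libraries. Pooled over the libraries of a genotype, wild type exceeded knockout 59.9-fold (95% counting interval 33.3 to 121) and heterozygous 56.6-fold (31.4 to 114); these intervals cover counting error only. The knockout libraries disagreed with each other, since all 11 reads were in a single library.

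Coch encodes cochlin, a secreted protein known from the inner ear. Its counts were 59 and 68 in knockout, 1 and 1 in heterozygous and 540 and 539 in wild-type libraries. It kept 12.1% of the wild-type level in knockout and was almost absent in heterozygous cultures, where wild type was higher 495-fold (137 to 4090). The knockout-to-heterozygous ratio of the pooled counts was 60.01 with a counting interval of 16.3 to 501. The fitted difference was 5.69 ± 0.50 log2 (adjusted p = 9.16e-13).

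The remaining matrix genes were below wild type in both genotypes, but their order between knockout and heterozygous cultures was not uniform. Adam12, a membrane metalloprotease, had 26.5 and 30.01 CPM in knockout, 44.5 and 48.3 CPM in heterozygous and 148 and 158 CPM in wild-type libraries. Fras1, a basement membrane protein, had 0.586 and 0.959 CPM in knockout, 1.62 and 1.57 CPM in heterozygous and 13.7 and 16.8 CPM in wild-type libraries. Prss35, a secreted serine protease-like protein, had 0.3395 and 0.3897 CPM in knockout, 1.25 and 1.45 CPM in heterozygous and 14.5 and 15.4 CPM in wild-type libraries. All 3 were lower in knockout than in heterozygous libraries without overlap, by -0.78 ± 0.065 for Adam12, -1.10 ± 0.29 for Fras1 and -1.94 ± 0.33 for Prss35 on the log2 scale (adjusted p = 1.7e-13, 0.00191 and 5.06e-06). The call on Fras1 was lost without the first knockout library, at -0.80 (adjusted p = 0.0638). Ndnf, a secreted glycoprotein with neurotrophic action, went the other way at 13.9 and 11.1 CPM in knockout, 6.62 and 3.78 CPM in heterozygous and 36.6 and 38.4 CPM in wild-type libraries, with a difference between knockout and heterozygous of 1.21 ± 0.19 (adjusted p = 8.89e-05). Lama2, the laminin alpha 2 chain, remained at 32.2% of wild type in knockout and 46.7% in heterozygous cultures.

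The secreted signals included a cytokine and members of the TGF-beta superfamily. Il33, an alarmin cytokine of the interleukin-1 family held in the nucleus of stromal cells, had 22.5 and 25.1 CPM in knockout, 57.6 and 59.8 CPM in heterozygous and 239 and 224 CPM in wild-type libraries. The 3 genotypes formed separate steps, with knockout lowest, and knockout differed from heterozygous by -1.37 ± 0.058 log2 (adjusted p = 4.69e-23). Gdf10, a growth factor of the TGF-beta superfamily, showed the same order at 0.833 and 1.11 CPM in knockout, 3.24 and 4.12 CPM in heterozygous and 19.3 and 21.01 CPM in wild-type libraries, with -1.98 ± 0.23 log2 between knockout and heterozygous (adjusted p = 1.07e-09). Inhba, a subunit of activin A, stayed near the ceiling at 47.2% of wild type in knockout and 41.6% in heterozygous cultures, and knockout against heterozygous was not past the threshold (0.12 ± 0.07, adjusted p = 0.191).

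Guidance molecules and Eph-ephrin proteins gave 9 genes, with similar medians in both genotypes, 29.5% of wild type in knockout and 30.6% in heterozygous cultures. Slit2, a secreted ligand of Robo receptors, had 83.6 and 93.1 CPM in knockout, 89.7 and 86.1 CPM in heterozygous and 228 and 222 CPM in wild-type libraries. The knockout and heterozygous libraries overlapped, and their difference was -0.056 ± 0.046 log2 (adjusted p = 0.375). Flrt2, a membrane protein that binds Unc5 receptors, had 61.8 and 63.98 CPM in knockout, 69.9 and 67.95 CPM in heterozygous and 220.0 and 230.1 CPM in wild-type libraries, with a small difference between knockout and heterozygous of -0.20 ± 0.047 log2 (adjusted p = 0.000859). Unc5c, a netrin receptor and a partner of the Flrt family, was at 29.1% of wild type in knockout and 27.3% in heterozygous cultures. The ephrin ligand Efnb2 was at 33.5% and its relative Efna3 at 24.1% in knockout, with 28.4% and 29.1% in heterozygous cultures. The receptors Epha3 and Epha7 were at 47.9% and 19.5% in knockout and at 41.2% and 31.7% in heterozygous cultures. Chn1, a Rac GTPase-activating protein that acts below Eph receptors, and Sema7a, a membrane-anchored semaphorin, completed the group at 29.5% and 33.98% in knockout and 32.1% and 23.9% in heterozygous cultures. Knockout and heterozygous cultures differed past the threshold in 3 of the 9, Flrt2, Efnb2 (0.18 ± 0.062, adjusted p = 0.0211) and Epha7 (-0.77 ± 0.24, adjusted p = 0.00847). Past it were 37.1% of all tested genes and 47.7% of genes of at least 8 CPM in wild type, so the count is not read as a trait of the group. The Efnb2 call was lost without the second heterozygous library (0.14, adjusted p = 0.146), without the second knockout library (0.16, adjusted p = 0.123), with DESeq2 (0.17, adjusted p = 0.0615) and in a fit of only the groups compared (0.17, adjusted p = 0.0705). The Epha7 call was lost without the second heterozygous library (-0.52, adjusted p = 0.18) or the first knockout library (-0.74, adjusted p = 0.0506).

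The promoter windows of 4 members are shown because they hold the contrast in base composition and motifs among members that were low together: Slit2 and Efnb2 are GC-rich and are the members whose TATA letters sit at the distance usual for a TATA box, Il33 is AT-rich with 5 matches, and Gpc3, nearly silent in both genotypes, is GC-rich with 1 match. Each is the first window that the RefSeq table on GRCm38.p6 lists for the gene, 250 bases before to 50 after a transcript start, 5' to 3' on the gene's strand, and capitals mark a match to a searched motif on either strand.
Slit2, chr5:47982905-47983204, plus strand: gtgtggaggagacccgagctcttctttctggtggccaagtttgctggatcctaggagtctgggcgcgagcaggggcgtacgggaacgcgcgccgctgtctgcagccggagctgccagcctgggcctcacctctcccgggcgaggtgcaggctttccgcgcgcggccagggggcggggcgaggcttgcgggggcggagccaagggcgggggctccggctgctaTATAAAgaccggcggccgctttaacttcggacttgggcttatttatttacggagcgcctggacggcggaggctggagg
Efnb2, chr8:8661193-8661492, minus strand: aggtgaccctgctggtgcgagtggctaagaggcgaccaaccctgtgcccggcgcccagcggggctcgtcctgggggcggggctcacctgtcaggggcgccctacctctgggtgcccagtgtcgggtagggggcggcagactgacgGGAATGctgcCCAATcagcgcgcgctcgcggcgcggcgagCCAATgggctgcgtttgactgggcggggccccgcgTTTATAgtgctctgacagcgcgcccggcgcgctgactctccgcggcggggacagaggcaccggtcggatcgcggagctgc
Il33, chr19:29924863-29925162, plus strand: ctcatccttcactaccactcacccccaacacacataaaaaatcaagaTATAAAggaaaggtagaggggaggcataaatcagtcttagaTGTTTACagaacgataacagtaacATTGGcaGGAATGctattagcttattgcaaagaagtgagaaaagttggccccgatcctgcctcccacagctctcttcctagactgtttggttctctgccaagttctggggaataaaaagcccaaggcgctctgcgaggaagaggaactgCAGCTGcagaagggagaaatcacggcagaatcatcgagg
Gpc3, chrX:52613925-52614224, minus strand: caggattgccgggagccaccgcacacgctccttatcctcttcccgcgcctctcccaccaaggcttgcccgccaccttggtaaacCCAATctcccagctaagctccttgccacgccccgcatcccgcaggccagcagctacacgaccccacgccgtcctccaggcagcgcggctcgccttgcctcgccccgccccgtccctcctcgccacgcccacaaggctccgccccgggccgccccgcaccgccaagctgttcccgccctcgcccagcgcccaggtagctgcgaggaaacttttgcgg
The capitals in Slit2 are the TATA letters. In Efnb2 they are, in order, a TEAD match, 2 CCAAT matches and the TATA letters read on the other strand. In Il33 they are a TATA match, a forkhead match, CCAAT letters on the other strand, a TEAD match and an E-box, and in Gpc3 a CCAAT match. For Efnb2, Il33 and Gpc3 that start is the outer start of the gene, whereas for Slit2 it lies 1864 bases inside the gene. GC content was 68.0% in Slit2, 72.3% in Efnb2, 46.3% in Il33 and 70.7% in Gpc3.

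Over the 44 of the 77 members matched to a window in the RefSeq table, 10 (22.7%) held TATAAA on either strand, against 6.46% of the 7629 matched genes of at least 8 CPM in wild type and 14.2% of all 27025 windows. In 2 of the 10, Slit2 and Efnb2, the match lay between 40 and 20 bases before the start. The forkhead letters TGTTTAC were in 5 members (11.4%), Slc7a11, Mgll, Ifitm1, Foxa1 and Il33, against 2.33% of genes at that level and 3.55% of all windows. The other motifs were held at close to the same share: the TEAD letters GGAATG in 11.4% of members and 11.1% of genes at that level, the AP-1 letters TGANTCA in 4.55% and 4.64%, the E-box CAGCTG in 15.9% and 14.1%, and CCAAT in 38.6% and 38.3%. Median GC content was 61.7% in the members and 61.7% in genes at that level, but windows under 50% GC made up 20.5% of the members and 10.1% of those genes. The start behind the window was the outer start of the gene for 18 of the 44 members and lay inside the gene for 26. These are counts of letters in fixed windows, and no test was made of them.

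**Figure D2:**
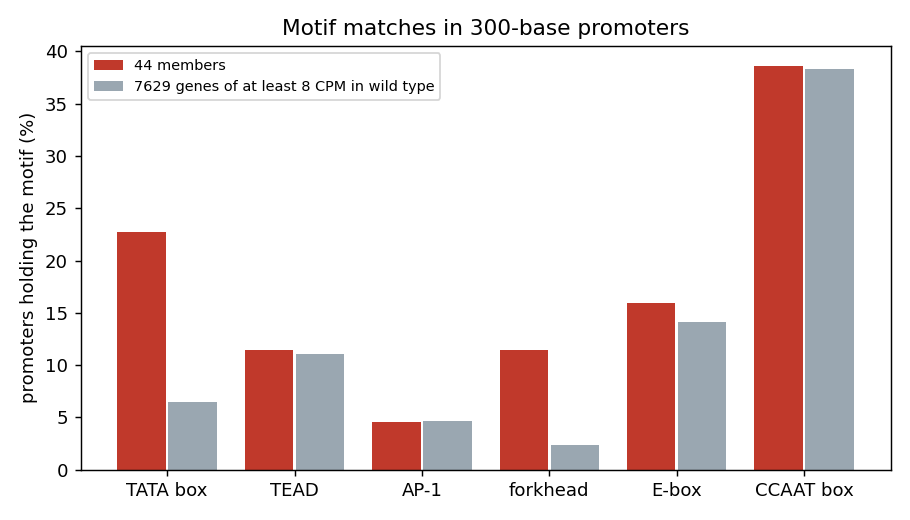
Share of promoter windows, in percent, that hold each motif on either strand, for the 44 matched members and the 7629 matched genes of at least 8 CPM in wild type. TATA letters (22.7% of members, 6.46% of genes at that level) and forkhead letters (11.4% and 2.33%) stand higher in the members, and the other motifs are near each other.

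Surface and adhesion proteins formed a group of 14 genes with medians of 25.1% of wild type in knockout and 26.6% in heterozygous cultures. Msln, which encodes mesothelin, a lipid-anchored surface protein, was nearly silent, with 3 and 1 counts in knockout, 2 and 2 in heterozygous and 483 and 469 in wild-type libraries. Wild type exceeded knockout 231-fold (counting interval 89.9 to 850) and heterozygous 218-fold (85.0 to 803). Of a list of 8 mesothelial markers drawn up after the data were seen, only Msln and Krt19 passed the filter, and both met the numeric conditions of the rule, so their low level was fixed by the choice. The defining marker Wt1 had 0 counts in every library and Upk3b was at 0 in all but 1 heterozygous library (0.246 CPM).

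Perp, a desmosome component, had 2.96 and 2.698 CPM in knockout, 2.498 and 1.72 CPM in heterozygous and 29.2 and 28.4 CPM in wild-type libraries. Cxadr, the coxsackievirus and adenovirus receptor found at tight junctions, had 1.94 and 2.01 CPM in knockout, 0.911 and 1.599 CPM in heterozygous and 18.3 and 17.96 CPM in wild-type libraries. Both stood far below wild type in all 4 libraries, and neither differed past the threshold between knockout and heterozygous (0.37 ± 0.20 for Perp, adjusted p = 0.149, and 0.58 ± 0.25 for Cxadr, adjusted p = 0.065). Without the first heterozygous library Perp was past the threshold at 0.65 (adjusted p = 0.0351), and without the second Cxadr was at 1.05 (adjusted p = 0.00826). Of 12 epithelial markers 4 passed the filter, of which Perp, Krt19 and Dsp were called lower in both genotypes. Perp and Krt19 met the numeric conditions of the rule, which leaves Dsp and Cdh1 outside it. Without Perp, the list summed to 4.35 and 3.81 CPM in knockout, 2.80 and 1.08 CPM in heterozygous and 17.2 and 19.8 CPM in wild-type libraries, most of it Krt19 in the last (14.99 and 16.63 CPM). Epcam was at 0 to 0.0338 CPM and Cldn7 at 0 in every library. The part of such cells in these results was not tested.

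Cx3cr1, the fractalkine receptor of macrophages and microglia, had 27.7 and 32.1 CPM in knockout, 31.9 and 31.8 CPM in heterozygous and 140.4 and 139 CPM in wild-type libraries. Most, but not all, of the other tested macrophage markers moved the other way. Of 14 tested markers 9 were higher and 1, Cx3cr1 itself, was lower in knockout than in wild type. In heterozygous cultures 7 were higher and 3 lower, Cx3cr1, Fcgr1 and C1qa. Without Cx3cr1 the list summed to 17140 and 17030 CPM in knockout, 17190 and 17140 CPM in heterozygous and 14730 and 14460 CPM in wild-type libraries. The largest part was Lyz2, at 7160 and 7168 CPM in knockout, 8611 and 8646 CPM in heterozygous and 7326 and 7151 CPM in wild-type libraries. Mrc1 had 1857 and 1862 CPM in knockout, 1792 and 1822 CPM in heterozygous and 753 and 754 CPM in wild-type libraries. Knockout and heterozygous libraries overlapped for Cx3cr1 (-0.15 ± 0.067 log2, adjusted p = 0.0684); without the second knockout library the difference was -0.26 (adjusted p = 0.00787).

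Adgra2, an adhesion receptor that serves as a Wnt co-receptor in brain vessels, had 74.3 and 66.7 CPM in knockout, 66.4 and 65.9 CPM in heterozygous and 174 and 181 CPM in wild-type libraries. Cd109, a lipid-anchored TGF-beta co-receptor, had 44.7 and 46.2 CPM in knockout, 44.2 and 39.5 CPM in heterozygous and 124 and 128 CPM in wild-type libraries. For both, knockout lay slightly above heterozygous without a difference past the threshold (0.028 ± 0.052, adjusted p = 0.727, for Adgra2 and 0.056 ± 0.061, adjusted p = 0.517, for Cd109). Tspan18, a tetraspanin, had 1.98 and 1.35 CPM in knockout, 4.29 and 3.78 CPM in heterozygous and 15.1 and 18.3 CPM in wild-type libraries. Pear1, a receptor of platelets and endothelium, had 13.6 and 14.4 CPM in knockout, 23.02 and 23.3 CPM in heterozygous and 47.6 and 47.4 CPM in wild-type libraries. Both were lower in knockout than in heterozygous cultures, by -1.34 ± 0.21 (adjusted p = 1.79e-06) and -0.79 ± 0.089 (adjusted p = 8.68e-10). The neural cell adhesion molecule Ncam1 followed them at 28.8% of wild type in knockout and 43.3% in heterozygous cultures. Vnn1, a pantetheinase, Cd80, a costimulatory ligand of T cells, and Bst1, a surface enzyme of the CD38 family, were higher in knockout than in heterozygous cultures, at 14.7%, 42.3% and 42.3% of wild type in knockout and 8.82%, 30.4% and 29.0% in heterozygous cultures. Adgrg6, an adhesion receptor needed for myelination, was at 44.7% and 37.7% of wild type in knockout and heterozygous cultures, and Ifitm1, an interferon-induced membrane protein, at 16.3% and 10.98%.

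Channels and transporters gave 7 genes, with medians of 10.9% of wild type in knockout and 17.3% in heterozygous cultures. Slc13a5, a plasma membrane citrate transporter, had 0.7098 and 0.6596 CPM in knockout, 0.338 and 0.338 CPM in heterozygous and 10.3 and 14.2 CPM in wild-type libraries. Nkain4, a protein that binds the sodium pump, had 1.05 and 1.499 CPM in knockout, 1.62 and 1.29 CPM in heterozygous and 21.3 and 20.9 CPM in wild-type libraries. Ano5, of the anoctamin family, had 2.01 and 1.47 CPM in knockout, 2.26 and 1.66 CPM in heterozygous and 24.8 and 23.3 CPM in wild-type libraries. All 3 were over 10-fold higher in the lowest wild-type library than in the highest of the others, and none differed past the threshold between knockout and heterozygous. Ano1, a calcium-activated chloride channel, was at 10.9% of wild type in knockout and 17.3% in heterozygous cultures. The L-type calcium channel subunit Cacna1c was at 33.7% and 33.5%, the inward rectifier Kcnj15 at 22.8% and 27.8%, and the cystine-glutamate exchanger Slc7a11 at 39.7% and 19.4%, in each case with knockout given before heterozygous cultures. Of the list of potassium, sodium, calcium and chloride channels 20 genes were tested, including 4 members. Outside the members, 1 of 16 was higher and 7 lower in knockout, and 6 were higher and 3 lower in heterozygous cultures.

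Transcription regulators gave 14 genes, several of them forkhead factors. Median levels were 33.3% of wild type in knockout and 26.7% in heterozygous cultures. In knockout against heterozygous cultures 5 of the 14 were called higher, none lower, and 9 were not past the threshold. Called higher were 19.1% of all tested genes and 25.9% of genes of at least 8 CPM in wild type, and called lower were 17.9% and 21.8%. The group is small and was drawn up after the members were seen, so nothing is read from these counts. Foxd1, a factor of kidney stroma and embryonic mesenchyme, was at 33.9% of wild type in knockout and 22.05% in heterozygous cultures. Foxa1, a pioneer factor of endoderm, Foxs1 and Foxd2 were at 23.6%, 32.7% and 28.1% in knockout and 15.7%, 40.5% and 26.3% in heterozygous cultures.

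Klf5, a zinc finger factor of epithelia and smooth muscle, had 1.54 and 1.02 CPM in knockout, 0.776 and 0.892 CPM in heterozygous and 15.3 and 18.5 CPM in wild-type libraries. Its relative Klf12 was at 19.2% and 24.7% of wild type in knockout and heterozygous cultures. Prdm6, a PR-domain repressor of smooth muscle, had 81 and 45 counts in knockout, 1 and 4 in heterozygous and 266 and 295 in wild-type libraries. Like Coch, it kept part of its level in knockout (23.2%) and almost none in heterozygous cultures (0.946%). The knockout-to-heterozygous ratio of pooled counts was 23.8 with a counting interval of 9.94 to 74.6, and the fitted difference was 4.45 ± 0.50 log2 (adjusted p = 6.47e-10). Hes1, the main Notch target repressor, was at 36.2% and 27.1% of wild type in knockout and heterozygous cultures. Of the other 8 tested genes of the Notch pathway 6 were lower and 2 higher in knockout, and 4 were lower and 1 higher in heterozygous cultures. Twist2 and Tbx15, regulators of mesenchyme, Eya2, a transcriptional co-activator, Egr1, an immediate early factor, and Tead4, the DNA-binding partner of YAP, were between 28.3% and 46.8% of wild type in knockout and between 27.2% and 45.8% in heterozygous cultures.

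Cytoskeletal and signalling proteins gave 11 genes and held the most abundant member. Akap12, a scaffold that anchors protein kinase A at the cell cortex, had 288 and 289.6 CPM in knockout, 152 and 151 CPM in heterozygous and 1028 and 1035 CPM in wild-type libraries. Per kilobase of exon it was also the highest member in wild type, at 159.7 CPM per kb, followed by Smoc1 at 124.5 and Actg2 at 100.5. Much of the difference between knockout and heterozygous cultures in the summed level, though not of that against wild type, came from Akap12: without it the set summed to 1263 and 1290 CPM in knockout, 1226 and 1210 CPM in heterozygous and 4553 and 4566 CPM in wild-type libraries. Its level was 0.87 ± 0.028 log2 higher in knockout than in heterozygous cultures (adjusted p = 1.33e-27).

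Actg2, the smooth muscle gamma actin, had 42.4 and 41.9 CPM in knockout, 29.2 and 29.3 CPM in heterozygous and 158 and 156 CPM in wild-type libraries. Fhl1, a LIM-domain protein abundant in muscle, had 74.6 and 82.4 CPM in knockout, 46.6 and 47.9 CPM in heterozygous and 192 and 196 CPM in wild-type libraries. Both were higher in knockout than in heterozygous cultures, Actg2 by 0.46 ± 0.06 (adjusted p = 2.02e-08) and Fhl1 by 0.67 ± 0.051 (adjusted p = 1.53e-14). Of 15 tested smooth muscle and pericyte markers, 10 were lower and 2 higher in knockout and 6 were lower and 3 higher in heterozygous cultures. Without Actg2 the list summed to 2750 and 2729 CPM in knockout, 3197 and 3215 CPM in heterozygous and 4439 and 4381 CPM in wild-type libraries. Most of each sum was Acta2, at 1573 and 1566 CPM in knockout, 1754 and 1773 CPM in heterozygous and 2580 and 2535 CPM in wild-type libraries. The part of such cells in the result was not tested.

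Pmepa1, a TGF-beta target that binds Smad proteins, had 60.1 and 60.8 CPM in knockout, 73.1 and 77.3 CPM in heterozygous and 226 and 228 CPM in wild-type libraries, and was lower in knockout than in heterozygous cultures (-0.38 ± 0.047, adjusted p = 5.84e-09). Map2, a microtubule protein of neurons, had 4 and 7 counts in knockout and 24 and 21 in heterozygous libraries, and stood at 0.123 and 0.2099 CPM in knockout, 0.8102 and 0.646 CPM in heterozygous and 9.65 and 9.37 CPM in wild-type libraries. Shroom2, an actin-binding protein, had 3.06 and 3.39 CPM in knockout, 1.69 and 1.26 CPM in heterozygous and 12.2 and 10.5 CPM in wild-type libraries. Map2 was lower in knockout than in heterozygous cultures (-2.15 ± 0.46, adjusted p = 0.000183), and Shroom2 was higher (1.07 ± 0.24, adjusted p = 0.000303). The other 5 were Nes, an intermediate filament of progenitor cells, at 26.2% of wild type in knockout and 25.7% in heterozygous cultures, Pde5a, which degrades cyclic GMP, at 38.7% and 47.0%, Gucy2c, a receptor that makes cyclic GMP, at 21.1% and 13.1%, and the dense-core vesicle proteins Ptprn at 27.1% and 34.4% and Hid1 at 9.89% and 14.0%.

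Enzymes and inhibitors added 6 genes. Serpinb9b, a serpin of the granzyme inhibitor family whose near copies may share reads, had 9.85 and 10.9 CPM in knockout, 4.29 and 3.905 CPM in heterozygous and 71.7 and 63.99 CPM in wild-type libraries. Moxd1, a copper monooxygenase of the endoplasmic reticulum, had 0.741 and 0.5396 CPM in knockout, 3.75 and 3.597 CPM in heterozygous and 9.204 and 10.2 CPM in wild-type libraries. They moved in opposite directions between knockout and heterozygous cultures, Serpinb9b by 1.28 ± 0.12 (adjusted p = 1.21e-11) and Moxd1 by -2.58 ± 0.27 (adjusted p = 1.31e-10), the most negative difference among the 77. Fam20a, a Golgi pseudokinase, Bcat1, which transaminates branched-chain amino acids, Mgll, the monoacylglycerol lipase, and Gxylt2, which adds xylose to Notch repeats, were between 20.0% and 45.4% of wild type in knockout and between 27.7% and 40.1% in heterozygous cultures. No role is given for the other 3 genes. Crct1 had 5.86 and 5.28 CPM in knockout, 0.608 and 0.738 CPM in heterozygous and 18.1 and 16.99 CPM in wild-type libraries, and differed by 2.97 ± 0.23 log2 between knockout and heterozygous (adjusted p = 1.77e-14). Rbpsuh-rs3 and LOC108168753 were at 18.1% and 24.1% of wild type in knockout and at 25.6% and 39.5% in heterozygous cultures, and reads of Rbpsuh-rs3 may be shared with near-identical copies.

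**Figure D3:**
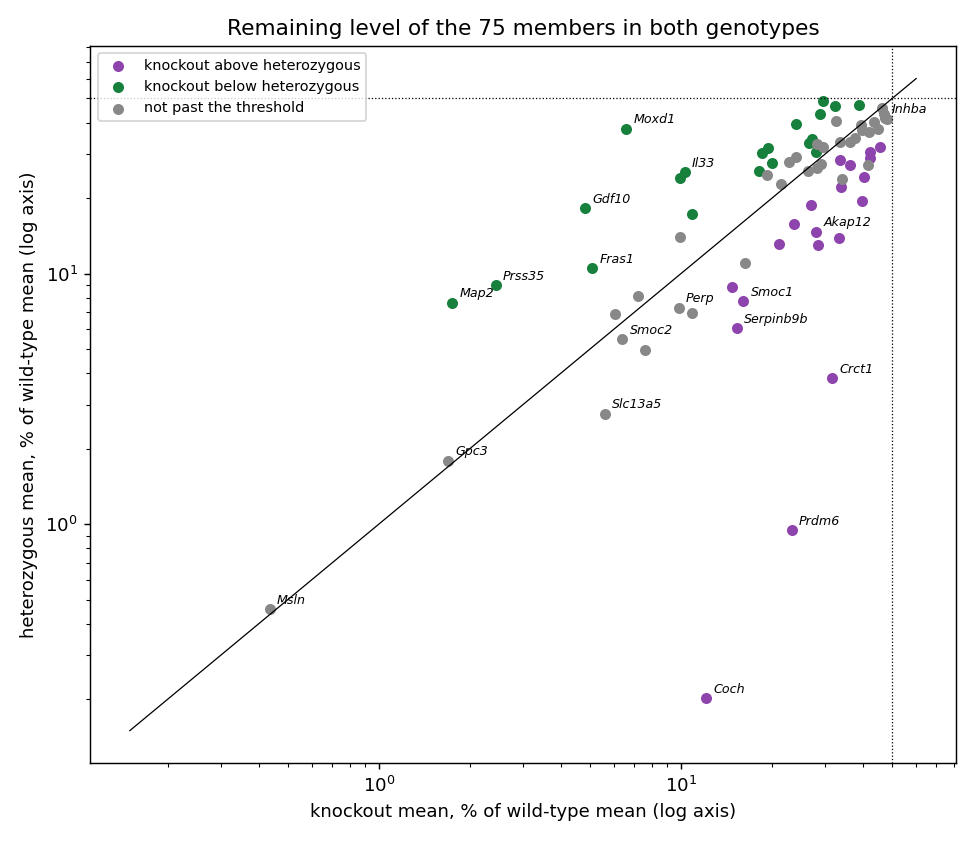
Mean level in knockout (horizontal) and heterozygous (vertical) cultures of 75 of the 77 genes, in percent of the wild-type mean on log axes, with the line of equality and the 50% limits dotted; colours mark genes called higher, lower or not past the threshold in knockout against heterozygous. Most genes lie near the line between 10% and 50%, Msln and Gpc3 are low on both axes, and Coch, Prdm6 and Crct1 lie far below the line.

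The comparison of knockout with heterozygous cultures asked whether the remaining levels of these genes differed between loss of 1 and of both alleles. At an adjusted p under 0.05, 21 members were higher in knockout, 21 were lower, and 35 were not past the threshold. The 42 called members are 54.5% of the set. Called were 37.1% of all tested genes and 47.7% of genes of at least 8 CPM in wild type. The latter share only the wild-type minimum and were not matched to the members' lower levels in knockout and heterozygous cultures. No excess or lack of calls is therefore read from these shares. Called lower were 27.3% of the members, 17.9% of all tested genes and 21.8% of genes at that level, and called higher were 19.1% of all tested genes and 25.9% at that level. The libraries did not overlap between knockout and heterozygous for 60 members (77.9%), against 67.2% of all tested genes and 75.7% at that level. The median difference was 0.025 log2 in the members and 0.012 in all genes, close to each other. Under TMM scaling 3070 of all tested genes were called higher and 2881 lower in knockout, whereas with library totals alone the split was 4126 and 2256; over all alternatives 18 to 27 members were called higher and 17 to 21 lower. Of the called members, 28 differed by less than 2-fold, 7 were at least 2-fold higher in knockout and 7 at least 2-fold lower. For 17 of the 35 members not past the threshold, the difference with 2 SE on either side stayed within 1.5-fold, and for 18 it was wider, so that a 1.5-fold difference is not excluded for them. Of the 16 members of at least 100 CPM in wild type 11 were called, and of the 9 under 10 CPM 3 were called. Shares of all genes at these levels, or at the fold sizes above, are not given here, so nothing is read from these counts. Leaving out each library in turn gave 36 to 42 called members. Gpc3 was past the threshold without the first knockout library (adjusted p = 0.0131), which held all of its knockout reads.

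**Figure D4:**
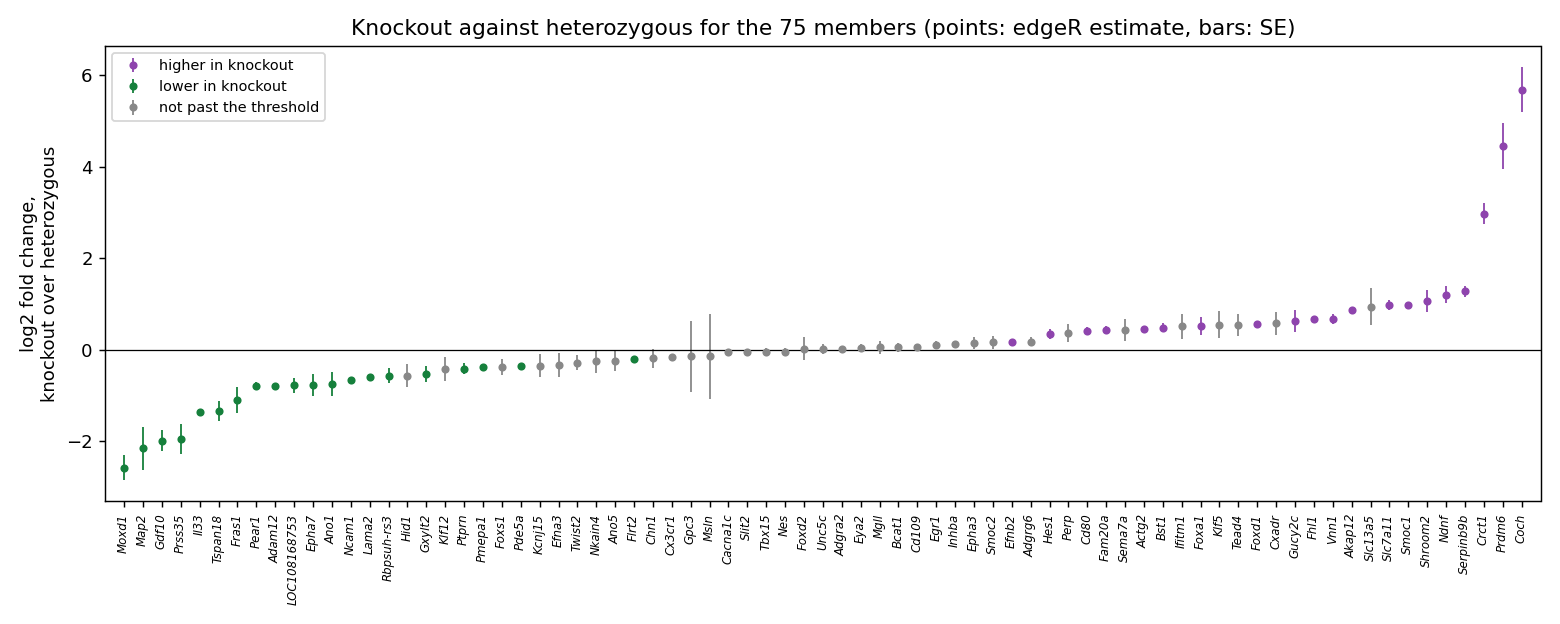
Difference between knockout and heterozygous cultures (log2 fold change with SE as bars) for 75 of the 77 genes, ordered by size; colours mark genes past an adjusted p of 0.05. The members spread to both sides of 0, with 20 of those drawn past the threshold on each side, Moxd1 at the lower end and Coch at the upper end.

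Lists of other genes of the same systems, drawn up with earlier results of these data known, held both members and genes that the rule did not take. Of 26 tested axon guidance genes 5 were members. Among the other 21, 11 were lower and 5 higher in knockout, and 8 were lower and 8 higher in heterozygous cultures. Plxna2, a plexin receptor for semaphorins, had 72.8 and 76.9 CPM in knockout, 69.1 and 72.6 CPM in heterozygous and 141.6 and 141.8 CPM in wild-type libraries, a difference from wild type of -0.94 in knockout (adjusted p = 8.79e-21) and -0.96 in heterozygous cultures (adjusted p = 7.83e-21). The Robo ligand Slit3, by contrast, had 27.8 and 25.5 CPM in knockout, 47.9 and 48.8 CPM in heterozygous and 58.4 and 65.0 CPM in wild-type libraries. Its knockout libraries were the lowest, at -0.92 log2 against heterozygous cultures (adjusted p = 2.67e-14). Among 28 tested matricellular and secreted matrix genes outside the members, 14 were lower and 9 higher in knockout, and 4 were lower and 18 higher in heterozygous cultures.

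Markers of arachnoid and meningeal cells were partly taken by the rule itself. Of 38 markers 28 were tested, of which 19 were lower and 5 higher in knockout and 16 lower and 5 higher in heterozygous cultures. Of the 28, 9 met the numeric conditions of the rule themselves, Foxd1 and Il33 as members and Foxc2, Gjb2, Slc4a4, Slc4a10, Zic1, Zic2 and Zic4 among those left out by name. Among the other 19, 10 were lower and 5 higher in knockout and 7 lower and 5 higher in heterozygous cultures. Without the 2 members the list summed to 839 and 824 CPM in knockout, 1419 and 1427 CPM in heterozygous and 1443 and 1457 CPM in wild-type libraries. This sum still holds the genes left out by name, whose low knockout and heterozygous levels were fixed by the numeric conditions. Its largest part was Nov, at 231.6 and 231.7 CPM in knockout, 730 and 736 in heterozygous and 381 and 376 CPM in wild-type libraries. Nothing is therefore read from the order of the sums. The markers Slc6a20a and Slc22a6 had 0 counts in every library, and Ptgds was at 0 to 0.207 CPM. Others outside the numeric conditions were read and moved either way. Crabp2 had 0.772 and 0.3298 CPM in knockout, 0.236 and 0.615 CPM in heterozygous and 5.782 and 6.204 CPM in wild-type libraries. Cldn11 had 0.1235 and 0.3598, 0.0338 and 0.215, and 1.947 and 1.654 CPM in the same order. Lum, among the 5 higher in each genotype, had 25.2 and 25.6, 37.1 and 37.7, and 12.57 and 12.2 CPM. The part of such cells in the members' levels was not tested. Adipocyte markers moved the opposite way: all 8 tested were higher in both genotypes. Summed levels were 521 and 519.5 CPM in knockout, 379 and 384 CPM in heterozygous and 213 and 209.9 CPM in wild-type libraries. Most of each sum was Lpl, at 381.5 and 385.8 CPM in knockout, 266 and 265 in heterozygous and 150.5 and 149 CPM in wild-type libraries. Adipoq was at most 2.28 CPM, and Lep had 0 counts in every library.

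**Figure D5:**
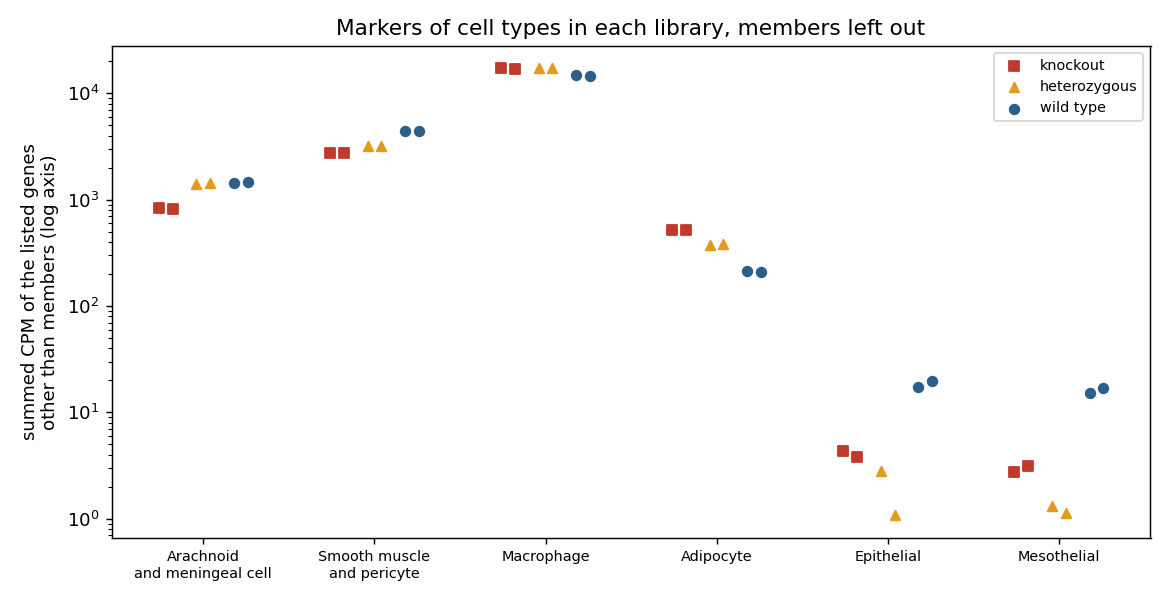
Summed level of marker lists in each library, in CPM on a log axis, with members of the set left out of each sum; colours mark knockout, heterozygous and wild-type libraries. Smooth muscle sums, mostly Acta2, are lower in knockout and heterozygous than in wild-type libraries. The epithelial and mesothelial sums are too, but in wild type are mostly Krt19, which met the numeric conditions of the rule. Macrophage and adipocyte sums are higher, the former with Lyz2 as its largest part and the latter made up mostly of Lpl. The arachnoid sum is lowest in the knockout libraries, but it also holds genes that met the numeric conditions and were left out by name.

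On the genome the members were scattered. Of the 77 genes 75 had a position in the RefSeq table, and chromosomes 3 and 6 held the most, 8 each (10.7% of placed members), against 4.82% and 4.85% of genes of at least 8 CPM. In 3 cases neighbouring members lay within 1000000 bases of each other. Vnn1 and Moxd1 on chromosome 10 were 318173 bases apart, Pear1 and Nes on chromosome 3 were 201983 bases apart, and Klf5 and Klf12 on chromosome 14 were 552769 bases apart. The first pair differed in its order between knockout and heterozygous cultures, since Vnn1 was higher in knockout by 0.67 ± 0.11 (adjusted p = 1.29e-06) while Moxd1 was lower.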

How the data were processed

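RNA was measured in 6 libraries, 2 for each genotype. The authors deposited raw read counts per gene, and these values are whole numbers with different totals. Per the submitters' processing notes, HISAT2 version 2.0.4 and build GRCm38 were used; the sources used here do not give the counter, annotation or strandedness, so near copies, overlapping and antisense genes may share reads. All 6 libraries entered 1 fit in edgeR 4.0.16 under R 4.3.3, with TMM scaling, the default low-count filter by group, robust quasi-likelihood estimation and 3 residual degrees of freedom. P-values were two-sided, adjusted by Benjamini-Hochberg over the 16061 tested genes. SE is the log2 fold change divided by the square root of F. CPM is the deposited count scaled to a library total of 1000000 without TMM. The fit was run on simulated counts only as a check of the code. That simulation used a fixed spread and altered only well-counted genes, so it does not cover members with few counts. A floor of 3 counts was 0.0885 to 0.101 CPM; intervals are exact binomial (95%) and cover counting error only.

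The members and lists were chosen with earlier results of these data known, and the mesothelial list and the roles were set after the members were seen. Values per library were given for the 12 members highest in wild type, the 12 with the highest ratio of lowest wild type to highest other value, and the 8 most increased and 8 most decreased called members in knockout against heterozygous; from a list, up to 4 genes of smallest p were named, or markers whose level bears on a member. Values of a few single genes that these rules name are not reported here.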

Additional observations from a re-analysis of the deposited data

How the results depend on the processing

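The 13 alternatives were RLE factors, library totals alone, DESeq2 1.42.0, other low-count filters, only the compared groups, the replicate block and dropping each library. Members compared in knockout against heterozygous were the 42 called, the 12 highest in wild type and the 12 with the highest ratio to the other libraries. These groups share genes. Among them no call was reversed where the gene was tested. The remaining members were not compared gene by gene. Of the 42 called members, 29 were past the threshold in all 13, and Coch, Prdm6 and Map2 in the 12 that tested them, since they had too few counts for the filter of 10 counts in every library. The other 10, among them Ano1, Efnb2, Epha7, Foxa1, Fras1, Gucy2c, Gxylt2, Hes1 and Rbpsuh-rs3, lost the call in at least 1. Deviations of same-numbered libraries correlated at 0.0178, 0.0137 and -0.00708, so no shared effect of the replicate number was seen. Such values cannot show whether same-numbered libraries were handled together. With the replicate block 6080, 6222 and 5913 genes were called in knockout against wild type, heterozygous against wild type and knockout against heterozygous, and 42 members in the last, as without it. The rule gave 37 genes at a ceiling of 33.3% of wild type, 164 at 66.7%, and, chosen after seeing the data, 157 without both heterozygous libraries. Leaving out each library in turn gave 78 to 85 genes. Depth limits Msln most, the 1 member with under 10 counts in each of the knockout and heterozygous libraries.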
